A study of Mus musculus with 6 samples.

Results

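The subject is 7 genes of the Ly6 family, Ly6c1, Ly6c2, Ly6g, Ly6a, Ly6e, Ly6d and Ly6i, and the antibodies to Ly-6c and Ly-6g, measured in the same lymph node cells. The genes were taken by name from the 32287 genes of the count matrix and the antibodies from the 6 of the antibody panel. All 7 genes had counts. CITE-seq was used, in which messenger RNA molecules and antibody-linked DNA tags are counted in each cell by unique molecular identifiers (UMIs). Cells from inguinal lymph nodes were sorted as CD11b hi and TOM+, pooled, and run in 2 captures, with hashtag antibodies marking 2 unimmunized and 2 immunized mice.

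The mice were CD169 Tom animals on a C57BL/6J background, in which Cre recombinase expressed from the Cd169 (Siglec1) locus turns on the red reporter tdTomato (TOM) in every cell that has used this locus, and in its progeny. Immunized mice had received ovalbumin-specific OT-II T cells and lysozyme-specific SWHEL B cells, were given hen-egg lysozyme conjugated to ovalbumin in adjuvant under the skin, and were harvested on day 9. All mice carried the reporter. Because the label is permanent, a TOM+ cell need not make CD169 at harvest. Each mouse is a replicate, so every comparison of conditions sets 2 mice against 2.

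Ly6 proteins are small cell surface proteins held together by disulphide bonds and tethered to the membrane by a glycosylphosphatidylinositol (GPI) anchor. In the mouse, Ly-6C is used to tell classical from nonclassical monocytes and also marks subsets of T cells and other leukocytes, Ly-6G is the standard surface marker of neutrophils, and Ly6a encodes Sca-1, a marker of blood stem cells that interferons induce in many cell types. Ly6d is known from the B lymphocyte lineage, and Ly6e is an interferon-inducible member.

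The 7 genes lie in a single cluster on chromosome 15 (GRCm38, GENCODE vM21 gene bounds), from the start of Ly6d at 74762056 to the end of Ly6g at 75159126, a span of 397.1 kb. Ly6c1 is at chr15:75044018-75048830 on the minus strand, Ly6c2 at chr15:75108158-75111970 on the minus strand and Ly6g at chr15:75155240-75159126 on the plus strand. Ly6a (chr15:74994877-74998031), Ly6i (chr15:74979534-74983430) and Ly6d (chr15:74762056-74763620) are on the minus strand, and Ly6e (chr15:74955051-74959905) is on the plus strand.

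The tags that report the antibodies are shown because all the protein values below are counts of these sequences. They are 15 bases long and differ at 11 positions, so a misread base does not turn a Ly-6c count into a Ly-6g count.
Ly-6c antibody tag: aagtcgtgaggcatg
Ly-6g antibody tag: acattgacgcaacta

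The promoters of the neighbours Ly6c1, Ly6c2 and Ly6g are shown because these genes are alike in sequence while their levels were highest in different kinds of cell. Each runs from 250 bases before to 50 bases after the RefSeq start in GRCm38.p6, read 5′ to 3′ on the strand of the gene. Ly6c1 is chr15:75048788-75049087 (minus), Ly6c2 is chr15:75111922-75112221 (minus) and Ly6g is chr15:75155011-75155310 (plus). Capitals mark TATAAA, the core of a TATA box, and GAGGAAGT, a core bound by the myeloid factor PU.1 and other ETS proteins. The motifs were searched on both strands and did not overlap.
Ly6c1: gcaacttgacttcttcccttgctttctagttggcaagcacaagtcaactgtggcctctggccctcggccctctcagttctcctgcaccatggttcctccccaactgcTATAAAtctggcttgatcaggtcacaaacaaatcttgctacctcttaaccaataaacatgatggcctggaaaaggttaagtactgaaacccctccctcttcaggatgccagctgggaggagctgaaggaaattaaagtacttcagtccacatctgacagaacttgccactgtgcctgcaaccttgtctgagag
Ly6c2: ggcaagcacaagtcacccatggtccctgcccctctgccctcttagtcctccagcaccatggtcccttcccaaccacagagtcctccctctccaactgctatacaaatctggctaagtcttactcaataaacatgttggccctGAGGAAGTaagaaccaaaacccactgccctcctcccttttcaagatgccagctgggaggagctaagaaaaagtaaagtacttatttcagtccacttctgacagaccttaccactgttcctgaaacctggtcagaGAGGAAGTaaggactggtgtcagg
Ly6g: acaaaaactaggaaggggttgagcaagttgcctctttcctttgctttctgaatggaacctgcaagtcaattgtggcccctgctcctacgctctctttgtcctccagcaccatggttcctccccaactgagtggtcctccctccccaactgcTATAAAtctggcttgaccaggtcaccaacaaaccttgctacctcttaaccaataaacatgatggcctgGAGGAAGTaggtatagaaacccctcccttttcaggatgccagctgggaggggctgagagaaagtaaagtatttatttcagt

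Of aligned bases, 78.2% were identical between Ly6c1 and Ly6c2, 83.98% between Ly6c1 and Ly6g and 82.51% between Ly6c2 and Ly6g. These shares leave out the gaps, which took 68, 88 and 154 columns of the 3 alignments, so they do not rank the pairs by likeness. TATAAA occurred 1 time in Ly6c1, 1 time in Ly6g and 0 times in Ly6c2. GAGGAAGT occurred 2 times in Ly6c2, 1 time in Ly6g and 0 times in Ly6c1. Among 32851 RefSeq promoters of this length, 13.62% held TATAAA and 3.202% held GAGGAAGT. TTCNNNGAA, the core bound by STAT factors, is in 8.298% and the core of the interferon-stimulated response element in 3.443% of promoters, and neither was in these 3. The matches describe letters in a window and were not tested for binding.

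A barcode was given to a mouse when at least 80% and at least 10 of its hashtag counts came from that mouse's hashtag, which left 12139 cells with at most 25% mitochondrial UMIs. They were 2828 and 537 cells from unimmunized mouse 1 and mouse 2, and 4052 and 4722 cells from immunized mouse 1 and mouse 2. Values of the 4 mice are given in this order throughout. Median UMIs per cell were 5877, 6280, 9674 and 12727.5, higher in both immunized mice. These medians pool all kinds of cell, and the mix of cells differed between the mice. Within the classes described next they were 5473.5, 5122, 5171 and 6310.5 in NK cell-like cells. In C1q macrophage-like cells they were 4733, 9500, 10728 and 14470. Cell classes were called from markers that include no Ly6 gene and no antibody: a cell with UMIs of at least 3 markers of a class was placed in it, and 7272 cells fell in a single class. The sort was made for CD11b, but it held cells with lymphoid markers: 609 gamma-delta T cell-like, 365 NK cell-like, 326 alpha-beta T cell-like and 279 B cell-like cells. Of the myeloid classes, 1893 cells were C1q macrophage-like, 1078 nonclassical monocyte-like, 943 interferon-high, 575 classical monocyte-like, 367 migratory DC-like and 347 medullary sinus macrophage-like, the last with a median of 1937 UMIs. Levels are in CPM, the UMIs of a gene as a share of all UMIs of a class in a mouse, multiplied by 1000000.

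Ly6d counts were B cell counts. Its level in B cell-like cells was 1532, 1033, 1275 and 1263 CPM, against at most 10.0 CPM in any mouse of any other class with 10 or more cells. All 4 mice were thus high in this class and the immunized values lay between the unimmunized ones. B cell-like cells held 2421 of the 3013 Ly6d UMIs, or 80.4%, although they were 2.30% of the cells. A further 14.0% lay in cells that passed both a myeloid and a lymphoid gate and were left out of the classes as likely doublets. With each cell thinned to 1000 UMIs to even out depth, 62.2% ± 11.2 (SD, n = 4 mice) of B cell-like cells had a Ly6d UMI, and 0.0533% ± 0.107 of gamma-delta T cell-like cells did. The single plasmacytoid DC-like cell of the series held 28 Ly6d UMIs.

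Ly6g, the gene of the neutrophil marker, was detected in 18 cells with 66 UMIs in all. Neutrophil-like cells, called by S100a8, S100a9, Retnlg, Ngp, Camp, Lcn2, Cxcr2 and Mmp9, held 60 of these UMIs (90.9%). Their Ly6g level was 244, 305, 245 and 281 CPM from 18, 2, 19 and 6 cells. These levels rest on 15, 1, 30 and 14 Ly6g UMIs in 3, 1, 6 and 2 of the cells, too few to say how alike the mice are. The other 6 UMIs were spread over 6 cells of other kinds. Classical monocyte-like cells had 1 Ly6g UMI in 6984999, which puts the rate in neutrophil-like cells 1770 times higher (95% exact counting interval 305 to 70900, counting error only). No Ly6g UMI was found in 1893 C1q macrophage-like cells, which allows a level of up to 0.121 CPM, nor in 943 interferon-high cells, which allows up to 0.239 CPM.

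The Ly-6g antibody was also highest in the neutrophil-like class, but not always in the cells with a Ly6g UMI. Its counts in neutrophil-like cells had a median of 72, and medians of 90.5, 100.5, 63 and 32 in the 4 mice, against a median of 1 over the 12094 other cells. Only 12 of the 45 neutrophil-like cells had a Ly6g UMI. The 33 without it were not low for the antibody: their median was 82 counts, from a median of 2796 UMIs per cell, while the 12 with the gene had a median of 32.5 counts from 7820.5 UMIs. Antibody counts of 30 or more, a limit chosen after the values were seen, were found in 101 cells. Of these, 36 were neutrophil-like, among them only 6 of the 12 with a Ly6g UMI. The other 65 cells had a median of 57 counts, and 23 of them had UMIs of S100a8 or S100a9. The 101 cells were 1.98%, 1.68%, 0.740% and 0.127% of the cells of the 4 mice, higher in both unimmunized than in both immunized mice. This difference was not tested.

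**Figure D1:**
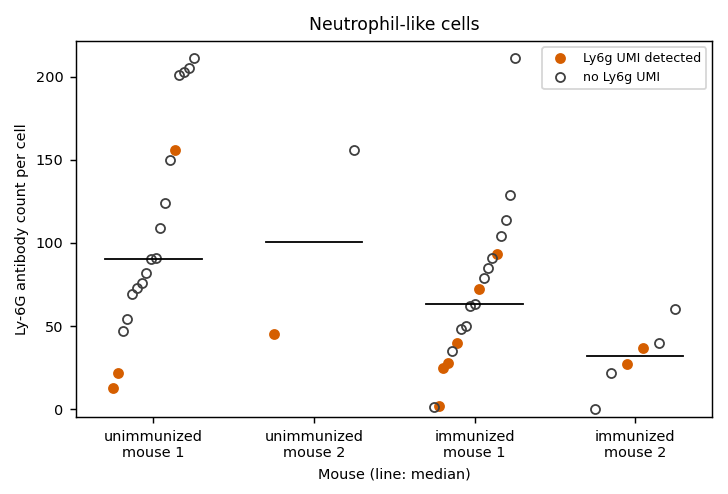
Ly-6g antibody count per cell (y axis) of the 45 neutrophil-like cells by mouse (x axis), 1 point per cell, filled where the cell had a Ly6g UMI and open where it had none, with a line at the median of each mouse. Of the 36 cells at 30 counts or more, 6 are filled, and the medians of the mice run from 32 to 100.5.

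Neutrophil-like cells were lower than classical monocyte-like cells for 2 of the 4 members that could be compared, Ly6c2 and Ly6e. Ly6c2 was at 439 and 269 CPM in the neutrophil-like libraries with at least 10 cells, of unimmunized mouse 1 and immunized mouse 1. It was at 1006, 1368 and 926 CPM in the classical libraries of unimmunized mouse 1 and both immunized mice. These libraries did not overlap, though the share of all genes without overlap was not counted. The smaller neutrophil-like groups, 2 cells of unimmunized mouse 2 and 6 of immunized mouse 2, had Ly6c2 at 305 and 965 CPM. The second value is above the 926 CPM of the classical cells of the same mouse. The log2 fold change of Ly6c2, without these small groups, was -1.87 ± 0.49 (SE), with an adjusted p of 0.0106 by edgeR's quasi-likelihood test. Ly6e fell by 1.60 ± 0.30 on the log2 scale (adjusted p = 0.000426), from 1573, 1589 and 1406 to 634 and 555 CPM. Ly6i, at 293 and 440 against 414, 1065 and 1935 CPM, and Ly6a, at 81.3 and 155 against 114, 328 and 871 CPM, overlapped between the classes and did not pass (adjusted p = 0.0934 and 0.297 by edgeR). Of all genes tested, 6.92% were called lower. The median gene itself was at -1.15 in this comparison, and relative to it Ly6c2 and Ly6e were at -0.71 and -0.44. With DESeq2's size factors the median gene was at 0.0094 and the split of calls turned from 280 higher and 780 lower to 491 higher and 122 lower. Ly6e was still called there, at -1.03 (adjusted p = 0.00145), and Ly6c2 was not, at -1.30 (adjusted p = 0.288), nor was it with mice called by HTODemux (-1.35, adjusted p = 0.143 by edgeR).

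Ly6c2 was highest in interferon-high and classical monocyte-like cells. In classical monocyte-like cells it was at 1006, 2632, 1368 and 926 CPM, the second value from 2 cells. Interferon-high cells, called by Rsad2, Ifit1, Ifit2, Ifit3 and Cxcl10, had 1491, 1465, 1697 and 823 CPM, which overlaps the classical values. Nonclassical monocyte-like cells, the class that the Ly-6C marker is meant to leave low, had 533, 475, 525 and 481 CPM, below every classical and interferon-high library. They were nevertheless above C1q macrophage-like cells, at 252, 428, 289 and 273 CPM, in each of the 4 mice.

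Lymphoid and dendritic classes were mostly lower and more uneven. NK cell-like cells had 430, 573, 231 and 144 CPM and alpha-beta T cell-like cells 147, 484, 128 and 290 CPM of Ly6c2. These ranges overlap each other and those of C1q macrophage-like and nonclassical monocyte-like cells. Gamma-delta T cell-like cells were at 36.7, 31.7, 21.1 and 30.5 CPM and B cell-like cells at 34.5, 11.6, 49.0 and 94.0 CPM. Medullary sinus macrophage-like cells had 26.2, 0, 181 and 0 CPM, the zeros from 14 and 10 cells. In the order of the 10 classes present in all mice by mean log2(CPM + 1), the steps from interferon-high to nonclassical, from nonclassical to C1q macrophage-like, and from alpha-beta T cell-like to cDC1-like exceeded the SD of the paired differences on that scale (1.39 against 0.42, 0.73 against 0.40 and 1.93 against 1.70) and held in 4 of 4 mice. The other neighbours in that order did not differ beyond their spread.

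The share of cells with a Ly6c2 UMI was also highest in interferon-high and classical monocyte-like cells. After thinning to 1000 UMIs it was 51.4% ± 7.17 (SD, n = 4 mice) in interferon-high, 49.6% ± 6.41 (n = 3) in classical and 22.5% ± 7.40 (n = 4) in nonclassical monocyte-like cells. Gamma-delta T cell-like cells gave 4.57% ± 3.62 and B cell-like cells 3.52% ± 3.38, taken here as the background share. Without thinning the shares were 79.8%, 88.8%, 57.3%, 14.5% and 13.1%, from median depths of 12426, 11653, 10336.5, 6294 and 4332 UMIs per cell.

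**Figure D2:**
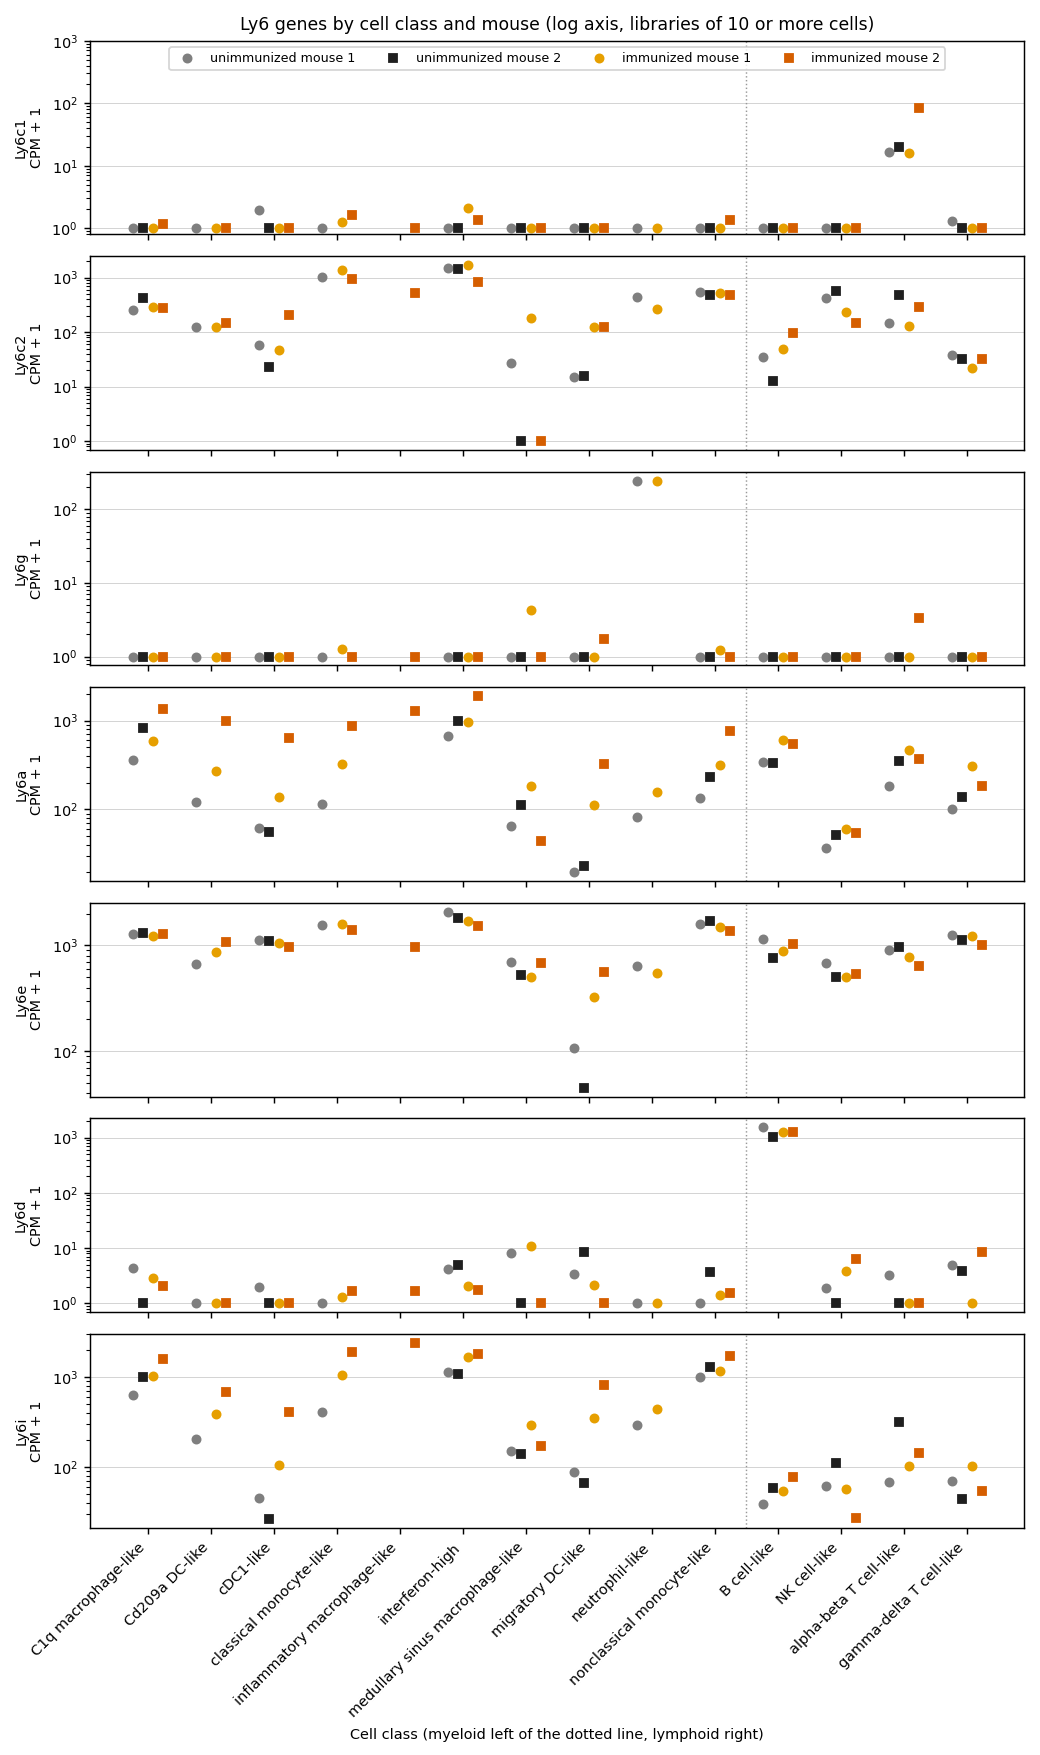
Level of each of the 7 genes (CPM + 1, log axis, 1 panel a gene) in each cell class, 1 point for each mouse with at least 10 cells of the class, in grey and black for unimmunized and orange for immunized mice. Ly6d stands out in B cell-like cells, Ly6g in neutrophil-like cells and Ly6c1 in alpha-beta T cell-like cells, whereas Ly6a, Ly6e and Ly6i are found in most classes.

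Across the 6 myeloid and 4 lymphoid classes with at least 10 cells in all 4 mice, 3 of the 4 members with an estimable fold were higher in myeloid cells, where 23.4% of the 11266 genes tested were called higher. Ly6i was higher by a log2 fold change of 2.73 ± 0.19 (SE, adjusted p = 2.13e-15), Ly6c2 by 1.06 ± 0.21 (adjusted p = 4.03e-05) and Ly6a by 0.60 ± 0.22 (adjusted p = 0.02). Ly6e gave 0.18 ± 0.09 (adjusted p = 0.124). The Ly6a call was lost without unimmunized mouse 1 (0.55, adjusted p = 0.446), unimmunized mouse 2 (0.62, adjusted p = 0.103) or immunized mouse 2 (0.22, adjusted p = 0.0928), by DESeq2 (0.42, adjusted p = 0.127) and with the mouse as a random effect in limma-voom (0.51, adjusted p = 0.0766), and with stricter gates its fold was -0.09 (adjusted p = 0.843). The values not credited to another tool are from edgeR. Ly6c1, Ly6g and Ly6d had no UMI in all libraries of some class and condition, so their folds are not given.

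Classical monocyte-like cells exceeded nonclassical ones for Ly6c2 by 1.07 ± 0.33 on the log2 scale, which did not pass the threshold over all genes (adjusted p = 0.155 by edgeR). With the mouse as a block the difference was 1.11 and the adjusted p was 0.00978 by the same test. Without the block, edgeR called 0 of the 4 estimable members, where 0.976% of genes were called, and DESeq2 called 0. By edgeR 2 of the 4 had an unadjusted p under 0.05, as did 918 of all 11266 genes. Ly6i went the other way by its value, -0.73 ± 0.36 (adjusted p = 0.61 by edgeR), with 414, 1042, 1065 and 1935 CPM in classical against 1001, 1316, 1179 and 1749 CPM in nonclassical monocyte-like cells, ranges that overlap.

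The Ly-6c antibody was the strongest of the panel, with 68.87% of all antibody counts. Its mean count per cell was 531, 681, 484 and 468 in classical monocyte-like cells and 255, 452, 224 and 259 in nonclassical ones, without overlap between the classes. Interferon-high cells had 269, 650, 344 and 313 counts, C1q macrophage-like cells 107, 387, 125 and 142 counts. Unimmunized mouse 2 was the highest in each of these 4 classes, with few cells in all of them. Gamma-delta T cell-like cells had 44.4, 40.7, 41.5 and 37.3 counts, and B cell-like and medullary sinus macrophage-like cells ranged from 31.7 to 45.2 and from 30.6 to 45.8 counts. These last 3 classes, low in Ly6c2, lay close together and give the floor of the antibody here.

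Antibody differences between classes were tested on the centred log ratio, which scales the 6 antibodies within each cell, with an exact two-sided sign-flip test over the 4 mice whose smallest possible p is 0.125. Nonclassical monocyte-like cells exceeded gamma-delta T cell-like cells by 1.62 ± 0.23 (SD, n = 4, exact p = 0.125), in 4 of 4 mice. Alpha-beta T cell-like cells exceeded them by 0.88 ± 0.27 and NK cell-like cells by 0.23 ± 0.09, each in 4 of 4 mice (exact p = 0.125 for both, n = 4). Medullary sinus macrophage-like cells were lower than them in 4 of 4 mice, with a difference of -0.38 ± 0.17 (exact p = 0.125, n = 4). The ratio also depends on the other antibodies of the panel. On it B cell-like cells, at the floor by counts, had a mean of 1.99, against 1.28 in gamma-delta T cell-like cells. Mean counts of alpha-beta T cell-like cells were 59.5, 193, 55.7 and 107, above the gamma-delta T cell-like means in 4 of 4 mice. The alpha-beta medians, 40.5, 38, 37 and 42.5 counts, overlapped the gamma-delta medians of 38, 41, 39 and 37. Over all 10 classes the myeloid mean exceeded the lymphoid mean by only 0.18 ± 0.19, in 3 of 4 mice (exact p = 0.25, n = 4), and its sign turned when the share of antibody counts was used. For Ly-6g the myeloid mean was lower on this scale in 4 of 4 mice, with a difference of -0.32 ± 0.10 (exact p = 0.125, n = 4), and higher by 0.35 on the log2 scale of counts. The mean Ly-6g counts of these classes ran from 0.467 to 7.05 over the libraries, and neutrophil-like cells are not among them.

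In the monocyte, interferon-high and C1q macrophage-like classes, and in several others, cells with more Ly6c2 UMIs had higher Ly-6c antibody counts. Classical monocyte-like cells with 0, 1 or 2, and 3 or more Ly6c2 UMIs had median antibody counts of 123, 179 and 477. The same steps gave 78, 127 and 295 in nonclassical monocyte-like, 72, 96.5 and 270 in interferon-high and 50, 80 and 165 in C1q macrophage-like cells. They gave 37, 42 and 199 in alpha-beta T cell-like, 38.5, 42 and 76 in NK cell-like and 36, 48.5 and 263 in migratory DC-like cells. Medians also rose over the steps in Cd209a DC-like, cDC1-like and inflammatory macrophage-like cells. Cells of the classical class with no Ly6c2 UMI were therefore still above the gamma-delta T cell-like floor. Across cells of 1 mouse, Spearman's rho between antibody count and Ly6c2 level was 0.675 to 0.681 in interferon-high and 0.413 to 0.659 in classical monocyte-like cells, a description of cells that share a library. In NK cell-like cells rho was 0.394 to 0.679. It was -0.0161 to 0.0452 in medullary sinus macrophage-like, 0.0176 to 0.261 in gamma-delta T cell-like and -0.0799 to 0.341 in B cell-like cells, which are low in Ly6c2. In neutrophil-like cells the medians went the other way, from 173 counts in 24 cells without a Ly6c2 UMI to 154.5 in 12 cells with 3 or more. Median depths were 2501.5 and 9265 UMIs per cell, so this split also sorts the cells by depth. Depth also rose with this split in some classes above. It went from 8371 to 11906 UMIs in nonclassical monocyte-like, 11480 to 14459 in C1q macrophage-like and 5708.5 to 8148 in alpha-beta T cell-like cells. It was 12308 and 12407 in interferon-high cells and fell from 5566 to 4537 in NK cell-like cells. Over the 49 libraries of mouse and class, Pearson's r between the centred log ratio and log2 CPM was 0.73 for Ly6c2 (rho 0.77), 0.71 for Ly6i and 0.15 for Ly6c1. These libraries share mice, captures and antibody staining, so no p is given. Between Ly-6g antibody and Ly6g, r was 0.90 and rho 0.39, with nearly all libraries at 0 CPM.

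**Figure D3:**
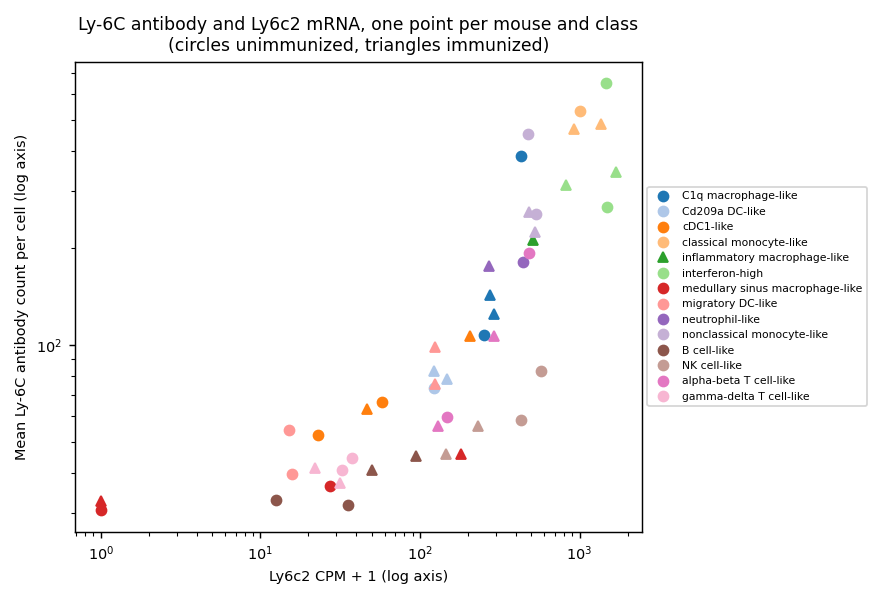
Mean Ly-6c antibody count per cell (y axis, log) against Ly6c2 level (x axis, CPM + 1, log), 1 point per mouse and class, coloured by class, with circles for unimmunized and triangles for immunized mice. Classical monocyte-like and interferon-high libraries lie at the upper right, and gamma-delta T cell-like, B cell-like and medullary sinus macrophage-like libraries along the floor between 30.6 and 45.8 counts.

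Ly6c1, the neighbour of Ly6c2, was almost absent from monocytes and was found in T cells. It had 117 UMIs in 60 cells, of which alpha-beta T cell-like cells held 62 (53.0%) while being 2.69% of cells. Its level there was 15.4, 18.9, 14.7 and 83.2 CPM, the last from immunized mouse 2. In every other class with 10 or more cells it was at most 1.08 CPM in each mouse. NK cell-like cells had 0 Ly6c1 UMIs, which allows up to 1.36 CPM, in a class where Ly6c2 was at 144 CPM or more.

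Within alpha-beta T cell-like cells the 2 genes were mostly detected in different cells. Of 21 cells with a Ly6c1 UMI and 82 with a Ly6c2 UMI, 1 had both. Both genes can be missed at this depth, and the overlap was not tested against the number expected from the separate shares. Over all kept cells, 28 of the 60 with a Ly6c1 UMI also had a Ly6c2 UMI. Among 80 cells with a Cd4 UMI and no Cd8 UMI, a split made after the values were seen, 11 had Ly6c1, at 50.4, 80.5, 23.0 and 187 CPM. Among 133 cells with a Cd8a or Cd8b1 UMI and no Cd4 UMI, 0 had a Ly6c1 UMI, which allows up to 2.26% of such cells to have one at their median depth of 5847 UMIs and sets no limit on the cells that express the gene. Ly6c2 showed the reverse, at 341, 814, 92.9 and 433 CPM in the Cd8 cells against 9.16, 26.8, 73.5 and 31.1 CPM in the Cd4 cells, higher in the Cd8 cells in 4 of 4 mice. The Cd4 libraries hold 37, 5, 30 and 8 cells and the Cd8 libraries 46, 12, 38 and 37, so single cells weigh heavily. The 814 CPM rests on 76 Ly6c2 UMIs in 2 of 12 Cd8 cells. In immunized mouse 1, 7 of 38 Cd8 cells and 5 of 30 Cd4 cells had a Ly6c2 UMI, which are similar shares.

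The median antibody count was close in these T cells and the upper quartile was not. The median was 56.5 counts in the 20 alpha-beta T cell-like cells with Ly6c1 only and 60 in the 81 with Ly6c2 only, against 36 in the 224 with neither. The upper quartiles were 78 and 178, and the 34 cells with 3 or more Ly6c2 UMIs had a median of 199. The last 500 bases of the Ly6c1 and Ly6c2 transcripts, where 3′ libraries are read, share sequence: 19.96% of the 50-base words of Ly6c1 were also found in Ly6c2. For Ly6a and Ly6i, 4.435% of such words were shared with another gene, for Ly6g 0.4435%, and for Ly6e and Ly6d 0%. A read that lies wholly within shared sequence cannot be placed, which makes the Ly6c1 and Ly6c2 counts less certain. How many reads this affects was not measured, and the share of words does not give it.

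**Figure D4:**
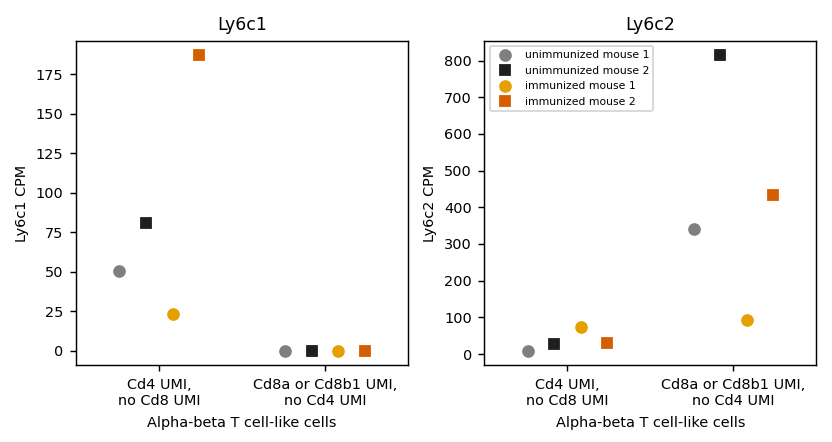
Ly6c1 and Ly6c2 levels (CPM, 1 point per mouse) in alpha-beta T cell-like cells with Cd4 UMIs only and with Cd8a or Cd8b1 UMIs only. Ly6c1 is at 0 in the Cd8 cells of all 4 mice and Ly6c2 is higher in the Cd8 than in the Cd4 cells of each mouse.

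Ly6i, Ly6a and Ly6e were found in most classes. Ly6i, which encodes another GPI-anchored member, was at 1139, 1101, 1705 and 1826 CPM in interferon-high and 1001, 1316, 1179 and 1749 CPM in nonclassical monocyte-like cells, ranges that overlap. It was at 2422 CPM in the 95 inflammatory macrophage-like cells, all from immunized mouse 2, and between 37.7 and 77.6 CPM in B cell-like cells. Ly6a was at 667, 1001, 974 and 1882 CPM in interferon-high cells and at 345, 337, 611 and 543 CPM in B cell-like cells, but at only 36.0 to 58.6 CPM in NK cell-like cells. Ly6e was at 499 CPM or more in every library with 10 or more cells other than those of migratory DC-like cells, where it was at 106, 44.3, 322 and 559 CPM. After thinning, 78.3% ± 3.45 of interferon-high cells and 12.3% ± 13.3 of migratory DC-like cells had a Ly6e UMI (SD, n = 4 mice each), from median depths of 12426 and 10561 UMIs per cell.

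Immunization was compared within classes and as their mean. Ly6a had the largest fold, by value, of the 4 estimable members. Its level was 135 and 232 against 318 and 767 CPM in nonclassical monocyte-like cells, 360 and 820 against 585 and 1360 CPM in C1q macrophage-like cells and 345 and 337 against 611 and 543 CPM in B cell-like cells. The conditions overlapped in C1q macrophage-like cells and not in the other 2 classes. With 2 mice against 2, values can part in this way without a difference. The share of all genes that did so was not counted. Over the mean of the 10 classes Ly6a was higher by 1.46 ± 0.21 on the log2 scale (adjusted p = 3.95e-05) and Ly6i by 0.89 ± 0.18 (adjusted p = 0.00231), by edgeR's test. Ly6c2 gave 0.62 ± 0.20 (adjusted p = 0.0605) and Ly6e 0.15 ± 0.09 (adjusted p = 0.413). These are 2 of 4 estimable members, against 3.18% of genes called higher. The split of all calls, 358 higher and 170 lower, turned to 175 higher and 458 lower by DESeq2 and to 133 and 260 by limma-voom, and both tools also called 2 of the 4 members. Ly6a was higher by its value in 10 of 10 classes, from 0.61 to 3.50 with a median of 1.08. Ly6i was higher in 8 of 10 (median 0.77), Ly6c2 in 5 of 10 (median 0.05) and Ly6e in 3 of 10 (median -0.07). All these classes come from the same 4 mice, and the share of all genes higher in 10 of 10 was not counted.

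These p-values treat the libraries of a mouse as independent, although there are only 2 mice a condition. With the mouse as a random effect in limma-voom, an alternative added after the data were seen, Ly6a gave 1.42 (adjusted p = 0.0087) and Ly6i 0.90 (adjusted p = 0.0305). With all cells of a mouse summed to 1 library, the folds were 1.98 and 1.68, and neither passed (adjusted p = 0.148 and 0.123 by edgeR). Without unimmunized mouse 1, where the median gene was at 0.72, both calls were also lost, at 1.24 and 0.87 (adjusted p = 0.0683 and 0.0822 by edgeR). In capture 1 alone both were called, at 1.52 and 1.03, and in capture 2 alone neither was, at 1.06 and 0.64 (adjusted p = 0.144 and 0.151 by edgeR).

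**Figure D5:**
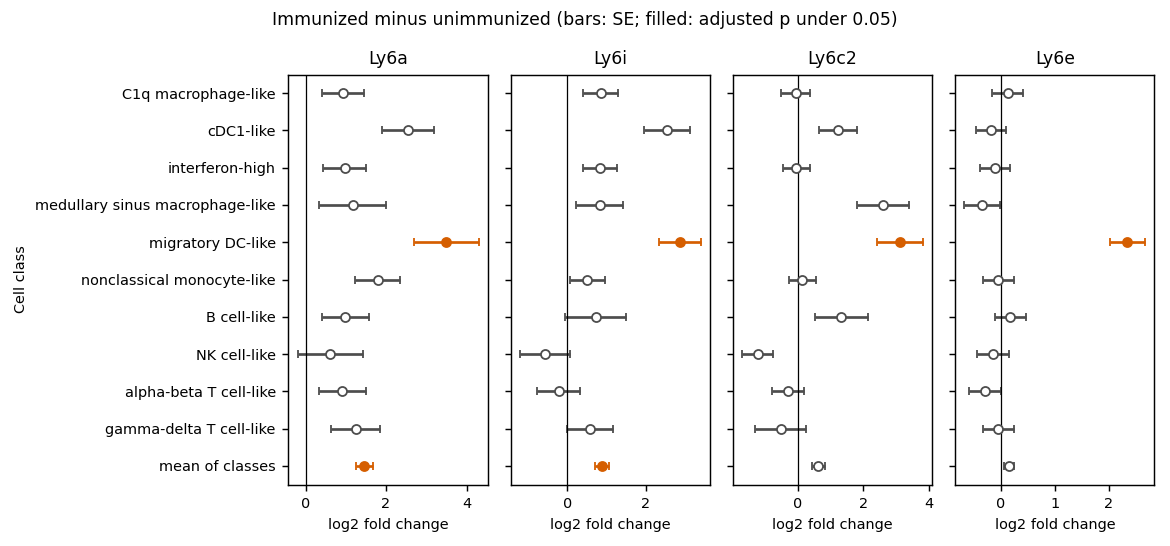
Log2 fold change of Ly6a, Ly6c2, Ly6e and Ly6i in immunized against unimmunized mice for each of the 10 classes and their mean, with bars of 1 SE from the edgeR fit and filled points where the adjusted p was under 0.05. Ly6a lies above 0 in all 10 classes, and the migratory DC-like values of all 4 genes are the highest of their gene.

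Migratory DC-like cells, called by Ccr7, Fscn1, Ccl22, Cacnb3 and Il4i1, were the class in which 4 members passed the test singly. Ly6a was at 18.7 and 22.1 CPM in unimmunized and 110 and 326 CPM in immunized mice, and Ly6c2 at 14.0 and 14.8 against 123 and 123 CPM. Ly6i was at 87.7 and 66.4 against 350.0 and 818 CPM. The conditions did not overlap for these genes, nor for Ly6e, though the share of all genes without overlap was not counted. The log2 fold changes were 3.50 ± 0.80 for Ly6a (adjusted p = 0.0125), 3.13 ± 0.70 for Ly6c2 (adjusted p = 0.0108), 2.87 ± 0.53 for Ly6i (adjusted p = 0.00196) and 2.34 ± 0.33 for Ly6e (adjusted p = 7.21e-05), by edgeR's test. They were 4 of the 5 estimable members, where 1.3% of genes were called and 1.01% were called higher. The other, Ly6d, had 5 UMIs in the class and was not called. In capture 2 alone 0 genes were called higher in this class by edgeR, so these 4 calls, that of Ly6e among them, were lost. Over 13 alternatives the call was lost in 5 for Ly6a, 5 for Ly6c2, 4 for Ly6i and 2 for Ly6e. Leaving out either unimmunized mouse lost the calls of Ly6a, Ly6c2 and Ly6i, with adjusted p from 0.132 to 0.525 by edgeR and folds of 3.45 and 3.51, 3.21 and 3.10, and 3.29 and 2.71, and kept that of Ly6e.

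Markers of C1q, interferon-high and inflammatory macrophage-like cells were higher in both immunized mice, as these genes were. In the same migratory DC-like libraries the 7 C1q macrophage markers summed to 105 and 29.5 CPM in unimmunized and 397 and 653 CPM in immunized mice, with 2, 5, 3 and 1 of them at 0. The 5 interferon-high markers summed to 43.3 and 22.1 against 193 and 386 CPM, with 0, 2, 0 and 0 at 0. The 5 inflammatory macrophage markers summed to 7.01 and 0 against 29.3 and 87.5 CPM, with 2, 5, 0 and 2 at 0. The nonclassical monocyte markers ranged from 387 to 450 CPM over all 4 mice, and the classical ones, at 206 and 14.8 against 133 and 179 CPM, overlapped. The class's own markers summed to 4437 and 7906 against 4080 and 3370 CPM, lower in both immunized mice. With 4 markers required in place of 3, 0 of the 4 genes were called by edgeR, and 1 had an unadjusted p under 0.05: Ly6a was at 19.1 and 24.4 against 45.6 and 26.5 CPM and Ly6e at 99.1 and 40.6 against 133 and 100 CPM, with folds of 0.95 and 0.55. Ly6c2 then gave 2.17 and Ly6i 1.00 (lowest adjusted p of the 4, 0.387 by edgeR). In the cells without a Ly6c2 UMI, Ly6e was at 52.2 and 45.2 against 162 and 351 CPM. Ly6i was there at 50.9 and 67.8 against 144 and 469 CPM, and Ly6a at 14.7 and 22.6 against 56.0 and 220 CPM. This split does not remove macrophages, since 804 of the 1893 C1q macrophage-like cells also had 0 Ly6c2 UMIs. The mean Ly-6c antibody count was 54.2, 39.5, 75.5 and 98.3 and the median 41, 36.5, 35 and 43, so the means were higher in both immunized mice while the medians overlapped. The share of cells with 3 or more Ly6c2 UMIs was 1.28%, 0%, 5.88% and 19.0%. The part of macrophage RNA or of misplaced macrophages in this result was not tested beyond these values.

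In the other 9 complete classes 0 of 44 tests of an estimable member passed by edgeR, and 7 had an unadjusted p under 0.05. Of all 11266 genes, from 373 (gamma-delta T cell-like) to 1162 (nonclassical monocyte-like) had an unadjusted p under 0.05 in a class. The shares of all genes called there were 0.621% in C1q macrophage-like, 0.71% in interferon-high, 0.231% in nonclassical monocyte-like, 0.0444% in alpha-beta T cell-like, 0.00888% in B cell-like, 0.00888% in gamma-delta T cell-like and 0% in NK cell-like, cDC1-like and medullary sinus macrophage-like cells. The lowest adjusted p was 0.18 by edgeR, for Ly6a in nonclassical monocyte-like cells at 1.79 ± 0.56. The lowest unadjusted p were those of Ly6i and Ly6a in cDC1-like cells, both at a log2 fold change of 2.54 (SE 0.58 and 0.65, adjusted p = 0.198 and 0.274 by edgeR). Fitted alone, this class called both (adjusted p = 0.0126 and 0.0142 by edgeR), among 25 of 5105 genes called. NK cell-like cells fitted alone called Ly6c2 lower at -1.20 (adjusted p = 0.00155 by edgeR), among 14 of 5424 genes. Gamma-delta T cell-like cells fitted alone called Ly6a higher at 1.41 (adjusted p = 0.00119 by edgeR), among 22 of 5536 genes. Ly6c1 in alpha-beta T cell-like cells gave 1.69 ± 0.84 (adjusted p = 0.874 by edgeR) and rests on immunized mouse 2. The Ly-6c antibody did not differ with immunization beyond the mice: the mean over classes was 1.57 and 1.91 against 1.87 and 2.04 on the centred log ratio, a difference of 0.22 (exact permutation p = 0.667 for 2 against 2 mice, with 0.333 the smallest possible).

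Whether immunization acted differently on myeloid and lymphoid classes was tested as an interaction. By edgeR 0 of the 4 members passed, where 0.0444% of genes did, and 3 had an unadjusted p under 0.05: Ly6i at 1.28 ± 0.39, Ly6c2 at 1.35 ± 0.42 and Ly6a at 0.88 ± 0.43, with the lowest adjusted p at 0.317. Of all 11266 genes, 696 had an unadjusted p under 0.05 by edgeR. DESeq2 called 1 of the 4 (adjusted p = 0.0426), beside 47 of 5150 genes, and limma-voom called 0, beside 66 of 11266. With stricter gates 0 of the 4 members had an unadjusted p under 0.05 by edgeR. Over the alternatives Ly6c2 ran from -0.31 to 1.55, Ly6i from -0.25 to 1.78 and Ly6a from 0.08 to 1.11.

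Genes known to be induced by interferon were set beside the members. Members and lists were chosen with earlier results of these data known, and a shared cause was not tested. With immunization over the class mean, the 4 members ran from 0.15 (Ly6e) to 1.46 (Ly6a), with a median log2 fold change of 0.76. Of 13 interferon gamma genes, 10 were called higher in this comparison, beside 3.18% of all genes, and 0 lower. Their median was 0.80 against -0.02 for all genes. Irf1, a transcription factor of the pathway, rose by 0.80 ± 0.15, the chemokine gene Cxcl9 by 1.44 ± 0.26 and the GTPase genes Gbp2 and Iigp1 by 1.29 ± 0.27 and 1.78 ± 0.38. Of 18 type I interferon genes 12 were estimable, and 2 were called higher, the nucleic acid sensor Zbp1 (0.56 ± 0.12) and Oas1a (0.67 ± 0.20), with a median of 0.03. Between myeloid and lymphoid classes 10 of the 13 and 11 of the 12 were called higher, beside 23.4% of all genes, with medians of 1.49 and 1.52 against -0.05. These lists overlap in regulation and the interferon-high class was called from 5 genes, of which Rsad2, Ifit1, Ifit2 and Ifit3 are in the type I list.

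Genes of the GPI anchor pathway, which attaches the anchor that Ly6 proteins use, gave no call with immunization: 0 of 20 estimable genes of the 28 were called by edgeR, with a median log2 fold change of 0.04, the lowest adjusted p at 0.236 and 2 genes at an unadjusted p under 0.05, and DESeq2 called 0. Between myeloid and lymphoid classes 1 was called higher and 6 lower, a share near the 25.3% of all genes called lower. Pgap2, which remodels the lipid of the anchor, was higher by 2.20 ± 0.11, and Dpm3, Mppe1 and Pigp were at -0.53 ± 0.09, -0.84 ± 0.15 and -0.91 ± 0.16.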

How the data were processed

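CITE-seq libraries of 4 mice in 2 captures were analysed. The authors aligned the reads with Cell Ranger 4.0.0 on mm10, per the submitters' processing notes, and counted antibody tags and hashtags with CITE-seq-count. All deposited values were raw UMI counts per gene, antibody or hashtag and barcode. The sources used here do not say if depth was equalized when the captures were merged.

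Antibody and hashtag barcodes carry no capture number, so 621 sequences that occurred in both captures were dropped, and 16182 barcodes had all 3 kinds of count. Cells over 25% mitochondrial UMIs were dropped, and 12139 cells had 1 mouse by hashtag. Total UMIs were 18943001, 3817845, 39020653 and 61983132 per mouse, in the order used below. Cells were placed in the class with the largest share of its markers detected, given at least 3, a rule set after the values were seen. Ties, and cells that passed a myeloid and a lymphoid gate, which are likely doublets, were left out. Other doublets were not removed. Every class had 3 or more of its own markers among its 10 leading genes, which the gate itself favours, so this is no independent check of the names.

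UMI counts were summed per mouse and class with at least 10 cells (49 libraries, 11266 genes after filterByExpr) and tested with edgeR 4.0.16 (TMM, quasi-likelihood test, Benjamini-Hochberg adjustment over all genes, threshold 0.05) in 1 fit of class and condition. Contrasts weighted classes equally. Folds were withheld where a class and condition had 0 UMIs in all its libraries. DESeq2 1.42.0, limma 3.58.1, Seurat 5.3.0 and scanpy 1.11.5 gave alternatives. The edgeR fit was run on simulated libraries, drawn independently with no effect of mouse or class. This run therefore cannot check the p-values where libraries share a mouse. Libraries of the same mouse come from the same animal, so pairing holds between classes by design, and the consensus correlation within a mouse was 0.0591. Antibody counts were compared as centred log ratios with exact tests. Intervals and limits for 0 counts (3 counts, 95% level) cover counting error only. A log2 CPM has a pseudocount of 1.

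The genes named are the 7 members, fixed lists of Ly6 and uPAR domain, GPI anchor and interferon-induced genes with up to 4 examples of lowest p each, and the 3 genes most correlated with each member among genes above a set mean level. Those of Ly6a are not reported here. The members and lists were chosen with earlier results of these data known. The Cd4 and Cd8 split, the antibody limit of 30, the follow-up of migratory DC-like cells and the limma-voom fit were chosen after the values were seen. Promoters are from RefSeq. Only Ly6c1, Ly6c2 and Ly6g of the 7 members matched a promoter entry.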

Additional observations from a re-analysis of the deposited data

How the results depend on the processing

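Over the mean of the classes, Ly6a and Ly6i with immunization kept their direction under the alternatives tried. The limits named beside them are the 2 mice a condition and the libraries that share a mouse. Within single classes some signs turned. Ly6a ran from -1.38 to 2.59 in medullary sinus macrophage-like cells and Ly6i from -1.80 to 2.31 in alpha-beta T cell-like cells. Unimmunized mouse 2, with 537 cells, limits every class value of that mouse. The number of genes called between myeloid and lymphoid classes was 5491, and 3618 in capture 2 alone. For immunization over the class mean it was 528, with 313 in capture 1, 174 in capture 2, 332 with stricter gates, 818 without a filter on low counts and 0 with all cells of a mouse summed. For the interaction it was 5, with 47 by DESeq2, 66 by limma-voom, 89 without the filter and 0 with HTODemux, with stricter gates and in either capture alone. For classical against nonclassical monocyte-like cells it was 110, with 62 by DESeq2, 67 and 51 in captures 1 and 2 and 246 without the filter. For neutrophil-like against classical monocyte-like cells it was 1060, and 613 by DESeq2.

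With the replicate block, the mouse as a term between classes, the interaction gave 16 genes and the classical comparison 237, and Ly6c2 was called in the latter at 1.11 (adjusted p = 0.00978 by edgeR). Mouse numbers do not pair animals across conditions, so no block was made for immunization.

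Leaving out 1 mouse at a time gave 2766 to 5155, 342 to 543, 0 to 40, 59 to 260 and 846 to 1016 genes for these 5 comparisons, where a lone mouse is assumed to vary like the others. In the last, only the second mouse of each condition could be left out, neither of which has a neutrophil-like library of 10 cells, and in the fourth unimmunized mouse 1 could not be. The lowest of the first 3 came without unimmunized mouse 1 and that of the fourth without unimmunized mouse 2. For the antibodies it gave 0.12 to 0.27 (Ly-6c) and -0.37 to -0.28 (Ly-6g) between myeloid and lymphoid classes, and 0.05 to 0.39 and 0.03 to 0.14 with immunization.

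Antibody differences turned sign with the scale. Between myeloid and lymphoid classes Ly-6c gave -3.47 percentage points as a share of antibody counts, and Ly-6g 0.35 as log2 of the mean count. With immunization Ly-6c gave -0.05 as log2 of the mean count, and Ly-6g -0.46 on that scale, -0.25 percentage points as a share and -0.06 with HTODemux. Ly6a between myeloid and lymphoid classes turned to -0.09 with stricter gates, Ly6i with immunization in NK cell-like cells to 2.73 with HTODemux, and Ly-6c between interferon-high and nonclassical monocyte-like cells to -0.06 in capture 2. The cause was not tested.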

Other observations

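Among 32 further genes of the Ly6 and uPAR domain family, 12 had 0 UMIs in the kept cells and 3 had at least 100. Ly6g5b, a family member encoded on chromosome 17, had 1075 UMIs, of which 616 (57.3%) were in gamma-delta T cell-like cells. Its level there was 160, 130, 149 and 76.4 CPM in unimmunized mouse 1, unimmunized mouse 2, immunized mouse 1 and immunized mouse 2. In alpha-beta T cell-like cells it was 62.9, 31.4, 11.8 and 11.9 CPM, lower in 4 of 4 mice. In the other classes with at least 10 cells it was at most 7.72 CPM in every mouse, apart from 48.8 CPM in the neutrophil-like cells of unimmunized mouse 1, from 3 UMIs. No test was made of this gene.

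Plaur, the receptor of the protease urokinase, had 4415 UMIs and was at 103, 49.1 and 54.2 CPM in the classical monocyte-like libraries and 67.8, 60.0, 38.8 and 48.6 CPM in the nonclassical ones, ranges that overlap. It did not exceed 9.58 CPM in NK cell-like, alpha-beta T cell-like or gamma-delta T cell-like libraries, but was at 23.2 to 65.9 CPM in B cell-like cells. Lynx1, a modulator of nicotinic acetylcholine receptors, had 452 UMIs and was at 18.8, 23.2, 24.9 and 28.6 CPM in B cell-like cells and at most 6.48 CPM in the other classes, apart from 27.8 CPM from 1 UMI in medullary sinus macrophage-like cells of unimmunized mouse 2.

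The genes whose levels followed 6 of the 7 members most closely over the 49 libraries are given as a description, since the libraries share mice, captures and depth. Genes of low mean level over the libraries were left out of this search, so genes confined to a rare class can be missing from it. For Ly6i they were Ms4a6d (r = 0.96), Lst1 (0.94) and Lyz2 (0.93), for Ly6c2 Sema4d (0.86), Susd6 (0.85) and Fuca2 (0.83), and for Ly6e Tgfb1 (0.88), Hcls1 (0.85) and Fermt3 (0.84). Ly6d was followed by Igkc (0.82), Smim14 (0.76) and Cd79b (0.75), of which Igkc and Cd79b are B cell receptor genes. For Ly6g they were R3hdm4 (0.74), Ppp1r2 (0.71) and 2310001H17Rik (0.63), values that rest largely on 2 neutrophil-like libraries. For Ly6c1 they were Trbc2 (0.51), Tpt1 (0.51) and Rpl12 (0.50). Between members, r was highest for Ly6c2 with Ly6i (0.70), Ly6a with Ly6i (0.69) and Ly6a with Ly6e (0.69), and was 0.12 for the neighbours Ly6c1 and Ly6c2.

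Of the 65 cells outside the neutrophil-like class with at least 30 Ly-6g antibody counts, 24 passed no gate. These had a median of 57.5 antibody counts from 2931.5 UMIs per cell, 0 Ly6g UMIs, and a UMI of S100a8 or S100a9 in 3.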
